A study of Mus musculus with 14 samples.

Results

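Flow cytometry divides mouse LSK cells (Lin-Sca1+cKit+, the bone marrow fraction that holds hematopoietic stem cells and multipotent progenitors) by a small set of surface proteins, and the 8 genes that encode them were followed here at the level of the histone mark H3K4me3. Kit and Ly6a, the gene of Sca1, set the LSK gate. Cd34, Flt3, and Cd48 mark multipotent progenitors within it, and Slamf1 (CD150), Procr (EPCR), and Tek (the receptor Tie2) mark long-term stem cells. The 8 genes were chosen for these roles from the 21440 protein-coding genes with a placed start. No measured value set the choice, but earlier results of these data were known when it was made. For each gene, peaks within 1 kb of its start and other peaks inside its body were taken from the H3K4me3 peak list of each library. Of the 8 genes, 5 had a start peak in at least 1 list, and 3 had none in any list.

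The cells came from the bone marrow of male C57BL/6J mice fed a high-fat diet (HFD) or a low-fat control diet (LFD) from a young age for several months. LSK cells were sorted from both, and H3K4me3 was profiled with CUT&Tag, in which an antibody tethers a transposase so that sequenced fragments pile up at the mark. Lists from 3 HFD-LSK and 4 LFD-LSK libraries were used. The labels do not tie a library to a single animal, so p-values measure the spread between these libraries, which may be technical in part. Both groups were sorted through the same gate on cKit and Sca1 protein, and the sort kept stem cells and progenitors together. In such a mixture, fewer cells carrying the mark and less of the mark per cell cannot be told apart.

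H3K4me3 is placed around the starts of active and poised genes, mostly over CpG-rich promoters, and is bound there by factors that help to start transcription. A peak therefore marks a promoter as available and does not measure the protein on the cell surface. KIT and FLT3 are receptor tyrosine kinases for stem cell factor and FLT3 ligand, CD34 is a sialomucin, and CD150 and CD48 belong to the SLAM family. Stem cells with long-term activity carry CD150 and EPCR and lack CD48, CD34, and FLT3 in the mouse, and the progenitors that follow gain these in steps.

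The promoters of Kit, Cd34, Cd48, and Tek are printed because they cover the range of outcomes, from a start peak in all 7 lists to none. RefSeq promoter windows of GRCm38.p6, from 250 bases before to 50 after an annotated transcript start, were found for 7 of the 8 genes, all but Ly6a. The windows shown lie on the plus strand at chr5:75574737-75575036 (Kit), chr1:194938571-194938870 (Cd34), chr1:171681742-171682041 (Cd48), and chr4:94739039-94739338 (Tek), and read 5′ to 3′ with each CpG dinucleotide in capitals.
Kit: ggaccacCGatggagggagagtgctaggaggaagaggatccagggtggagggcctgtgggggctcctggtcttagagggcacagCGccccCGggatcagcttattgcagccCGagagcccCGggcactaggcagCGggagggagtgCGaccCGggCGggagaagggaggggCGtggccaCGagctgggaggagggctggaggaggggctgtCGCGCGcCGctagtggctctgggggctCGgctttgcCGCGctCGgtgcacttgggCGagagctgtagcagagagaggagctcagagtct
Cd34: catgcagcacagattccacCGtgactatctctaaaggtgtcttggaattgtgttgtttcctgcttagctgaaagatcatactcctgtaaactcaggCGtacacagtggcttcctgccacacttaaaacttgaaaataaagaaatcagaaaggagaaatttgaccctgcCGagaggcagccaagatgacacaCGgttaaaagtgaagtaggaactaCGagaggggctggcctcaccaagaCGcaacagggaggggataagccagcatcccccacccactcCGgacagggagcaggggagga
Cd48: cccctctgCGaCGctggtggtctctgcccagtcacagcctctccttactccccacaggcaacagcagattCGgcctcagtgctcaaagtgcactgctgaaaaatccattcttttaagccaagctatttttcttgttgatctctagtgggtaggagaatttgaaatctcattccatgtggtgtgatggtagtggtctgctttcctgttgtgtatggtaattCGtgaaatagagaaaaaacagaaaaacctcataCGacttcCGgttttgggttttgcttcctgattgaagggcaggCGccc
Tek: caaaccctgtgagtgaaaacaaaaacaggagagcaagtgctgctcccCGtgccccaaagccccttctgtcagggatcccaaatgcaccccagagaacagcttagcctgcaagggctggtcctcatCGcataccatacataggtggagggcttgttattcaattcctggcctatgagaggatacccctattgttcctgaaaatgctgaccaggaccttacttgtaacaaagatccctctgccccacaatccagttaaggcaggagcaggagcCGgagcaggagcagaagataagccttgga
The Kit window holds 20 CpGs, those of Cd34 and Cd48 hold 7 each, and that of Tek holds 3. The windows of Flt3, Procr, and Slamf1 hold 18, 13, and 4.

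The lists held 9186, 13094, and 11977 peaks in HFD-LSK replicates 1, 2, and 3 and 7447, 10572, 10352, and 6921 peaks in LFD-LSK replicates 1, 2, 3, and 4. The fragments at each summit were recovered from the fold enrichment and p-value of the peak, which gave a mean coverage of 0.0891 to 0.268 fragments over an average position. The lowest summit that a list could call, its calling limit, was 79.7, 29.8, and 34.5 times the mean coverage in HFD-LSK and 98.3, 58.1, 59.98, and 101 times in LFD-LSK. HFD-LSK replicates 2 and 3 and LFD-LSK replicate 2 thus had the lowest limits. Start peaks covered 39.0%, 49.2%, and 43.0% of protein-coding genes in the HFD-LSK lists and 32.8%, 42.7%, 40.8%, and 28.5% in the LFD-LSK lists. Of 10 genes for lineage markers used to remove mature cells, 8 had no start peak in any list, where 48.7% of all protein-coding genes had none. Ptprc, listed for its B220 isoform, was called in 3 lists, but the gene encodes CD45 on all hematopoietic cells, LSK cells included, and a start peak does not tell the isoforms apart.

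Start peaks fell into clear classes across the 8 genes. Kit and Cd34 were called in 7 of 7 lists, Flt3 in 6, Cd48 and Procr in 3 each, and Ly6a, Slamf1, and Tek in 0. Among protein-coding genes, 20.2% were called in all 7 lists, 12.3% in 6, 3.02% in 3, and 48.7% in none. The progenitor markers were called in 16 of 21 possible cases, with 8 of 9 in HFD-LSK and 8 of 12 in LFD-LSK. The long-term stem cell markers were called in 3 of 21, with 2 of 9 in HFD-LSK and 1 of 12 in LFD-LSK, and all 3 calls were at Procr. Beside these counts, 39.0% to 49.2% of all protein-coding genes had a start peak in the HFD-LSK lists. In the LFD-LSK lists the share was 28.5% to 42.7%. Genes of 1 list are not replicates of a diet, and the pooled counts were not compared between diets. No marker was called in every list of 1 diet and in no list of the other. Over genes called in at least 1 list, 0.3% were called in all HFD-LSK and no LFD-LSK lists and 0% in the reverse pattern. Fisher's exact test gave p = 0.486 for Cd48 and Procr and p = 1 for Flt3 (two-sided, adjusted p = 1 for each over 10997 protein-coding genes), where the smallest p that 3 against 4 libraries allow is 0.0286.

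**Figure D1:**
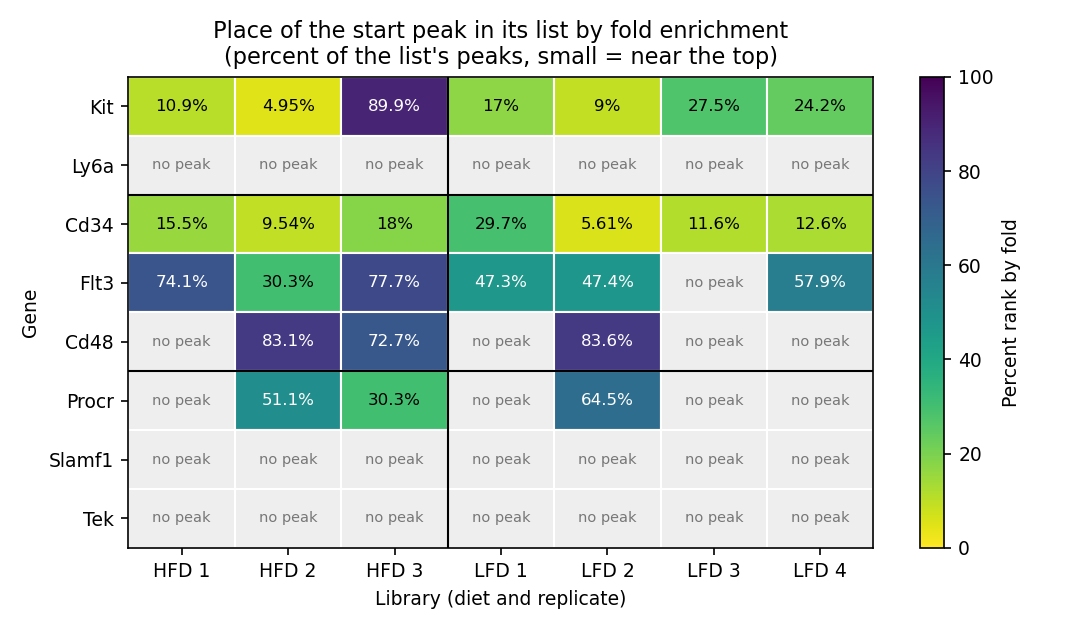
Place of each gene's start peak in its list, as the percent of the list's peaks counted from the highest fold enrichment (color and number, small values near the top), by gene (rows) and library (columns); grey cells had no start peak. Kit and Cd34 fill all 7 columns, Cd48 and Procr fill the same 3, and Ly6a, Slamf1, and Tek fill none.

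Kit, which encodes the stem cell factor receptor used in the gate, lies at chr5:75574987-75656722 on the plus strand of GRCm38. Ranked by fold enrichment from the top of each list, its start peak stood at 1000, 648, and 10770 in HFD-LSK replicates 1, 2, and 3 and at 1267, 951, 2847, and 1675 in LFD-LSK replicates 1, 2, 3, and 4. As percent of the list, these are 10.9%, 4.95%, and 89.9% in HFD-LSK and 17.0%, 8.995%, 27.5%, and 24.2% in LFD-LSK. Thus Kit was in the upper part of 6 lists and near the bottom of that of HFD-LSK replicate 3. The local background under that summit was 31.9 times the average background of its library, against 1.00 to 2.11 times in the other six. In HFD-LSK replicate 3, 30.6% of all peaks had a local background above 10 times the average, compared with 3.97% to 17.1% elsewhere. The summit itself held 21 fragments, or 181 times the mean coverage, a height that placed it at 25.3% of that list when peaks were ranked by fragments, a measure chosen after seeing the data. Mean rank was 4139 ± 5745 over the HFD-LSK lists (SD, n = 3), against 1685 ± 829 over the LFD-LSK lists (SD, n = 4), a difference of 2454 that lay within the spread between libraries (two-sided exact permutation test over the 35 ways to assign the diets; p = 0.686; adjusted p = 0.952 over 4395 consensus peaks). Without HFD-LSK replicate 3 the difference was −861, and ranked by fragments it was −249, so its direction rested on that library and on the measure ranked.

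The width of the Kit peak separated the diets in the unadjusted test. It measured 1997, 6524, and 1835 bp in HFD-LSK and 1742, 1522, 1801, and 638 bp in LFD-LSK. All 3 HFD-LSK peaks were wider than all 4 LFD-LSK peaks, although the narrowest of the former exceeded the widest of the latter by only 34 bp. Mean width was 3452 ± 2662 bp over the HFD-LSK lists (SD, n = 3), against 1426 ± 539 bp over the LFD-LSK lists (SD, n = 4), a difference of 2026 bp (two-sided exact permutation test, p = 0.0286, which no assignment can go below; adjusted p = 0.702 over 4395 consensus peaks). Of those 4395 peaks, 3.55% were wider in HFD-LSK at the same threshold and 0% were narrower. In HFD-LSK replicate 2 the peak extended from −815 to 5708 bp relative to the gene start, and without that library the difference was 490 bp (two-sided exact permutation test, p = 0.333). The same library had the widest peaks in general, with a median of 1198 bp, while LFD-LSK replicate 4, with the narrowest Kit peak, had the lowest median, 525 bp. In that LFD-LSK replicate 4 list a second Kit peak of 259 bp followed 630 bp after the start. Ranked by width within each list, Kit no longer separated the diets (two-sided exact permutation test, p = 0.114). Kit nonetheless stood among the wide peaks of most lists, in the top 4.31%, 0.0726%, and 4.49% by width in HFD-LSK and the top 3.92%, 18.1%, 6.32%, and 36.0% in LFD-LSK.

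Cd34, at chr1:194938821-194961292 on the plus strand, varied less in fold rank than Kit, the other gene called in all 7 lists. It ranked 1424, 1249, and 2160 in HFD-LSK and 2209.5, 593.5, 1204.5, and 869 in LFD-LSK, which is 15.5%, 9.54%, and 18.03% of the HFD-LSK lists and 29.7%, 5.61%, 11.6%, and 12.6% of the LFD-LSK lists. The diets overlapped, and every list held Cd34 in its upper 30%. Mean rank was 1611 ± 483 over the HFD-LSK lists (SD, n = 3), against 1219 ± 706 over the LFD-LSK lists (SD, n = 4), a difference of 392 (two-sided exact permutation test, p = 0.429; adjusted p = 0.933 over 4395 consensus peaks). As percent of the list the means were 14.4% and 14.9%, with SDs of 4.36 and 10.3 percentage points. For Kit these SDs were 47.4 and 8.22, so on that scale Cd34 varied more than Kit over the LFD-LSK lists. The Cd34 summit lay 140 to 158 bp after the gene start in 6 lists and 198 bp after it in LFD-LSK replicate 1. Neither Kit nor Cd34 passed the threshold of 0.05 in rank, which 3.34% of the 4395 consensus peaks passed with a place lower in the HFD-LSK lists and 0.387% with a higher one. These 147 and 17 peaks became 52 and 60 when ranks were taken as percent of the list, and 66 and 49 when taken among the 4395 peaks alone.

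The Cd34 peak measured 769, 2929, and 1738 bp in HFD-LSK and 1416, 2015, 1645, and 528 bp in LFD-LSK. The diets overlapped in width as well, with a difference of 411 bp (two-sided exact permutation test, p = 0.543; adjusted p = 0.782 over 4395 consensus peaks). The widest came from HFD-LSK replicate 2, without which the difference was −148 bp. In both genes the widest peak belonged to the library with the lowest calling limit, and the narrowest to the library with the highest, and the part of the limit in these widths was not tested.

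**Figure D2:**
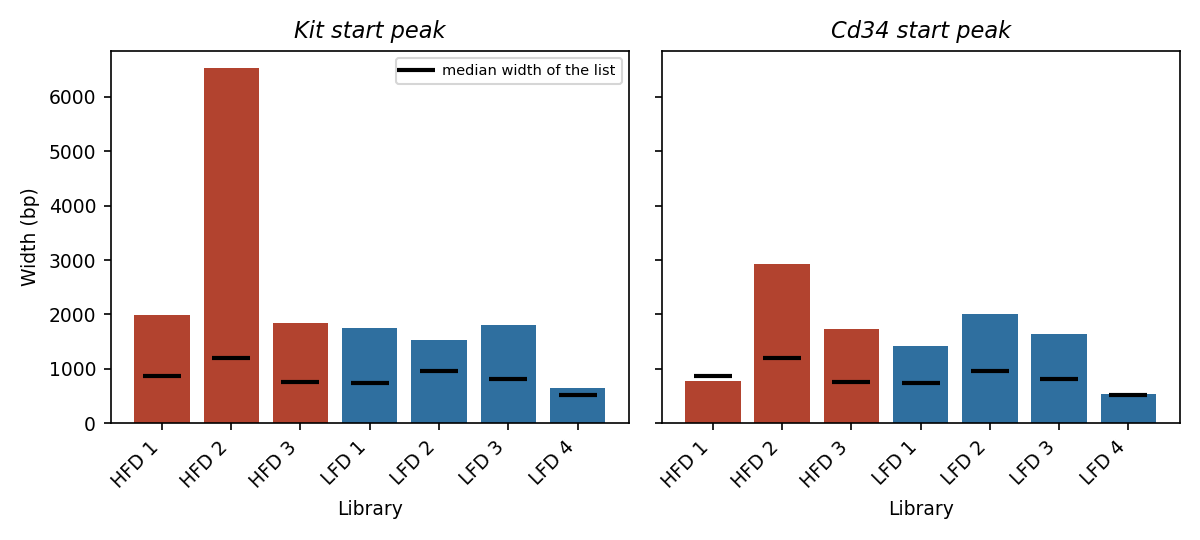
Width in bp of the Kit (left) and Cd34 (right) start peaks in each list, as bars (red HFD-LSK, blue LFD-LSK), with the median width of all peaks of that list as a black dash. The Kit peak of HFD-LSK replicate 2, at 6524 bp, stands far above the other six, which lie between 638 and 1997 bp.

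Flt3, the receptor gene whose product marks lymphoid-primed progenitors, lies at chr5:147330741-147400489 on the minus strand. It ranked 6808, 3964, and 9311.5 in HFD-LSK (74.1%, 30.3%, and 77.7% of the lists) and 3519, 5013, and 4010.5 in LFD-LSK replicates 1, 2, and 4 (47.3%, 47.4%, and 57.9%). It was not called in LFD-LSK replicate 3. Except for 30.3% in HFD-LSK replicate 2, its peaks stood in the middle or lower part of the lists. The local background in HFD-LSK replicate 3 was 18.9 times the average. The summits reached 147 to 225 times the mean coverage in the 6 lists that called it, above the limit of 59.98 in LFD-LSK replicate 3. That limit applies at an average background, and the local background at Flt3 in that library is not given where no peak is listed. The summits lay 322, 314, and 313 bp after the gene start in HFD-LSK and 96, 154, and 96 bp after it in LFD-LSK. The diets did not overlap in this position, a pattern singled out after its values were seen and not tested, and 7.36% of the 4567 consensus peaks called in these 6 lists had summits that did not overlap between the same libraries. The consensus peak also lies within 1 kb of the start of Gm26597, so its signal cannot be assigned to Flt3 alone.

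Cd48, the SLAM family gene carried by most multipotent progenitors, lies at chr1:171681245-171705258 on the plus strand and was called in 3 lists, those of HFD-LSK replicates 2 and 3 and of LFD-LSK replicate 2. It stood at 83.1%, 72.7%, and 83.6% of these lists, with widths of 938, 577, and 787 bp. These were weak peaks, with 16, 6, and 16 fragments at the summit, or 59.7, 51.8, and 92.9 times the mean coverage. The 4 lists without a call had limits of 59.98 to 101 times, and 2 of the 3 summits lay below all 4 of these. The summit lay 903 and 1172 bp after the gene start in HFD-LSK replicate 2 and LFD-LSK replicate 2, where the printed promoter window of a downstream transcript start falls within 1 kb, and 206 bp after it in HFD-LSK replicate 3.

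Procr encodes EPCR, the endothelial protein C receptor, which retains stem cells in the marrow. It lies at chr2:155751125-155755478 on the plus strand and was the only long-term stem cell marker with a peak. The same 3 lists called it, at 51.1%, 30.3%, and 64.5%, with widths of 1143, 756, and 629 bp. Its summits held 35, 10, and 22 fragments, or 131, 86.3, and 128 times the mean coverage. The values of HFD-LSK replicate 2 and LFD-LSK replicate 2 exceeded the limits of all 4 lists without a call, and that of HFD-LSK replicate 3 exceeded those of HFD-LSK replicate 1 and LFD-LSK replicate 3. These limits hold at an average background. The 3 lists that called Cd48 and Procr are the 3 with the lowest calling limits. Of 647 protein-coding genes called in 3 lists, 170 (26.3%) were called in these same 3. The part of depth and background in these calls was not tested.

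**Figure D3:**
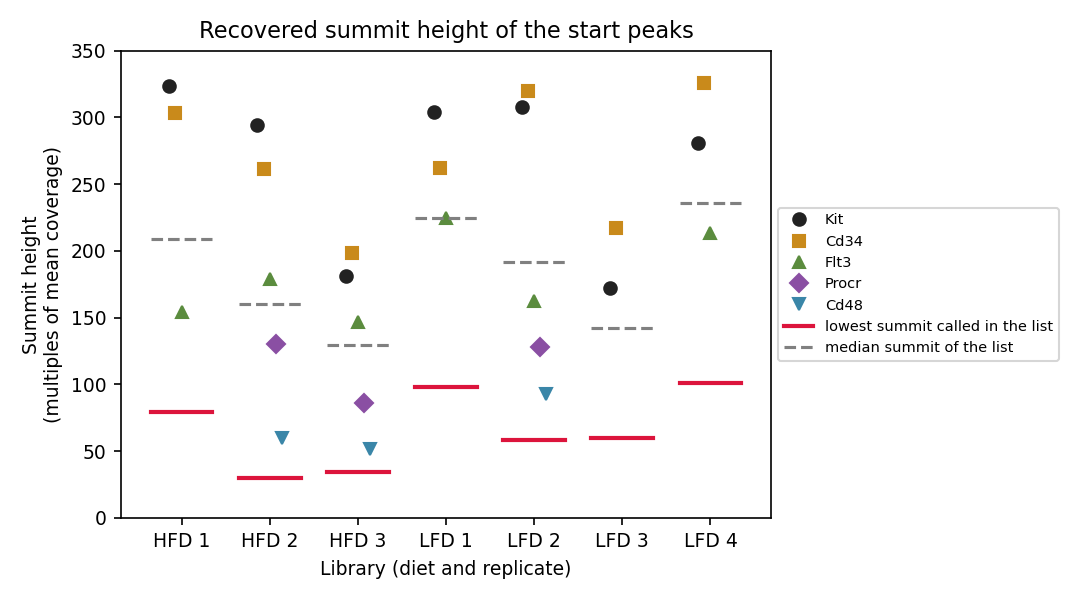
Height of the start peak summits in multiples of the mean coverage of the library (y axis), recovered from the fold enrichment and p-value, for each library (x axis) and gene (symbols), with the lowest summit called in the list (red line) and the median summit of the list (dashed line). Kit and Cd34 lie above the median in all 7 lists, while Cd48 lies close to the red line in the 3 lists that called it.

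The order of the genes was stable in part. Cd34 stood nearer the top than Flt3 in all 6 lists with both, and nearer than Procr and Cd48 in all 3 lists with each pair. Procr stood nearer than Cd48 in 3 of 3. Kit and Cd34 could not be ordered, with Kit nearer the top in 3 of 7 lists. Kit stood nearer the top than Flt3 in 5 of 6 lists and nearer than Procr and Cd48 in 2 of 3, the exception in each case being HFD-LSK replicate 3. Flt3 was nearer the top than Procr and than Cd48 in 2 of 3 lists each.

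To contrast the subsets by rank, the median percent rank of the called progenitor markers was subtracted from that of the called long-term stem cell markers, which was Procr alone. The difference was 20.8 percentage points in HFD-LSK replicate 2, −42.5 in HFD-LSK replicate 3, and 17.1 in LFD-LSK replicate 2, where a positive value puts Procr farther from the top. The mean was −1.51 ± 35.5 (SD, n = 3 lists), so by fold the lists gave no common direction. Without HFD-LSK replicate 3 the mean was 18.97. Ranked by fragments, a measure chosen after seeing the data, Procr stood at 60.5%, 75.7%, and 75.9% of these lists. The progenitor medians, each that of Flt3, were 42.5%, 41.9%, and 61.7%, nearer the top in every list. Cd48 stood farther from the top than Procr by fragments in each of them. Slamf1 and Tek, without a peak, have no rank and do not enter. With 2 HFD-LSK lists and 1 LFD-LSK list, the diets could not be compared on either measure.

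Ly6a, Slamf1, and Tek had no start peak in any list. Ly6a, which encodes the Sca1 protein carried by every sorted cell, lies at chr15:74994877-74998031 on the minus strand. Its nearest peak lay 39.98 to 41.95 kb away. It was the start peak of Ly6e in 4 lists and a separate peak inside Ly6e in the other 3. Of the 9 Ly6 genes within 200 kb, which were examined after the absence of Ly6a was seen, Ly6e was called in 7 of 7 lists and the other 8 in none. These genes are close relatives, and how reads that fit more than 1 copy were aligned is not given in the sources used here, so the calls at Ly6a are uncertain. Slamf1, at chr1:171767131-171801184 on the plus strand, had its nearest peak 73.5 to 315.5 kb away. In the 3 lists that called Cd48, the nearest peak to Slamf1 was that of Cd48, its neighbor. Tek, at chr4:94739086-94874976 on the plus strand, had its nearest peak 124.1 to 124.4 kb away in every list. At an average background, a summit at these 3 starts would have been listed above 29.8 times the mean coverage in HFD-LSK replicate 2, where Kit reached 295 times, but only above 101 times in LFD-LSK replicate 4, so the mark was not detectable at this depth and is not shown to be absent.

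Inside the gene bodies, away from the starts, peaks were found at Kit and Cd34 and at no other of the 8 genes. Of all protein-coding genes, 16.3% had such a peak in at least 1 list, starts of other genes inside them included. A Kit region from 2344 to 4121 bp after the start was covered in HFD-LSK replicates 2 and 3 and LFD-LSK replicates 2 and 3, in HFD-LSK replicate 2 by the long start peak itself. In the other three lists it was called as separate peaks of 410 to 1025 bp that stood at 64.4% to 99.6% of the list. At Cd34, regions from 1943 to 2496, from 2860 to 3832, and from 4279 to 5193 bp after the start were each covered in 1 HFD-LSK and 1 LFD-LSK list. The HFD-LSK list was that of replicate 2 for all 3 regions, and the first of them was covered there by the long start peak, so that its only separate peak was in LFD-LSK replicate 3. These 4 body regions were covered in both diets, whereas 35.9% of the 4700 body regions of protein-coding genes were covered in 1 diet only, and none of the 4 reached the threshold (Fisher's exact test, two-sided, p = 1 for each).

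**Figure D4:**
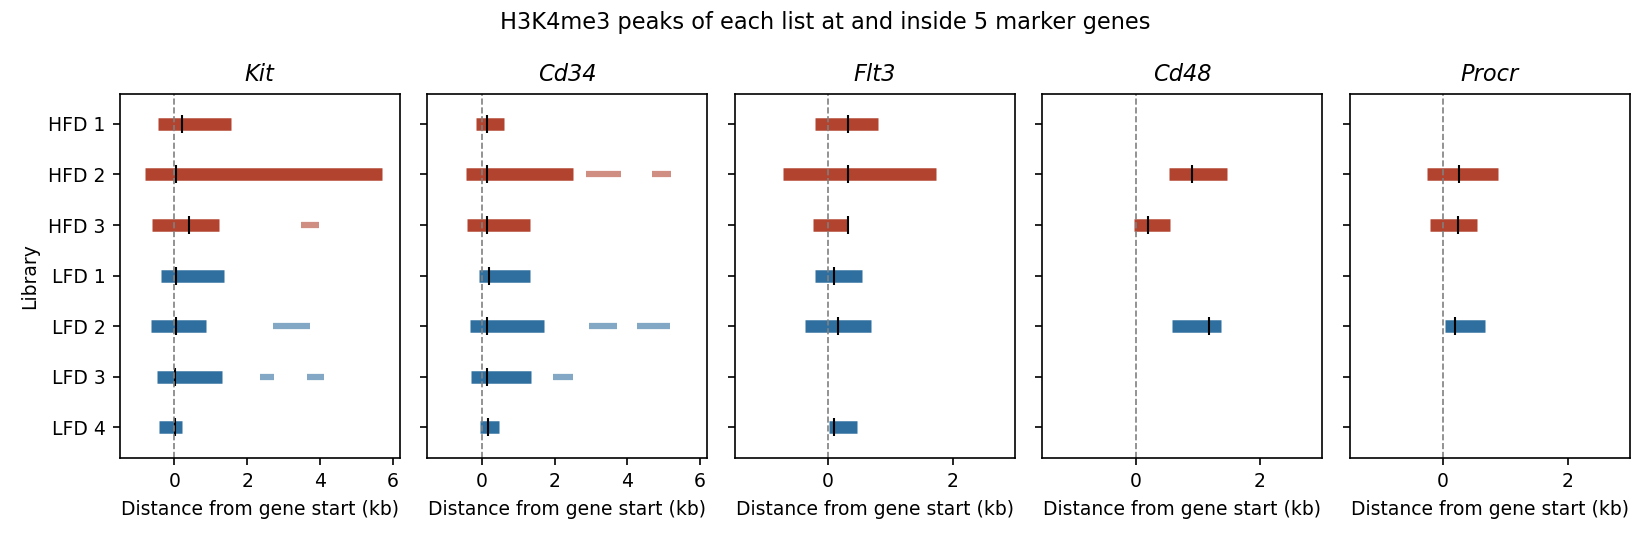
Extent of the peaks at Kit, Cd34, Flt3, Cd48, and Procr relative to the gene start (x axis in kb, positive into the gene) in each list (y axis, red HFD-LSK, blue LFD-LSK), with thick bars for the strongest start peak, a black tick for its summit, and thin bars for peaks in the gene body; the second start peak of Kit in LFD-LSK replicate 4 is not drawn. The Kit peak of HFD-LSK replicate 2 covers the region where 3 other lists show separate body peaks.

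CpG content, which the choice of genes did not use, was higher in promoters called in more lists, and Cd34 stood apart from this. Protein-coding promoters called in 7 lists held a median of 25 CpGs, those called in 1 to 6 lists held 20, and those called in none held 4. Slamf1 and Tek, with 4 and 3 CpGs, fall among the promoters with 0 to 4 CpGs, of which 92.8% were called in no list. Kit, with 20, falls among those with 20 or more, of which 39.8% were called in all 7 and 16.1% in none. Cd34, with 7, was called in all 7 lists, whereas 6.35% of promoters with 5 to 9 CpGs were called in all 7 and 70% in none. Cd48, with the same 7 CpGs, was called in 3 lists. These bins were set with the calls known and are a description.

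**Figure D5:**
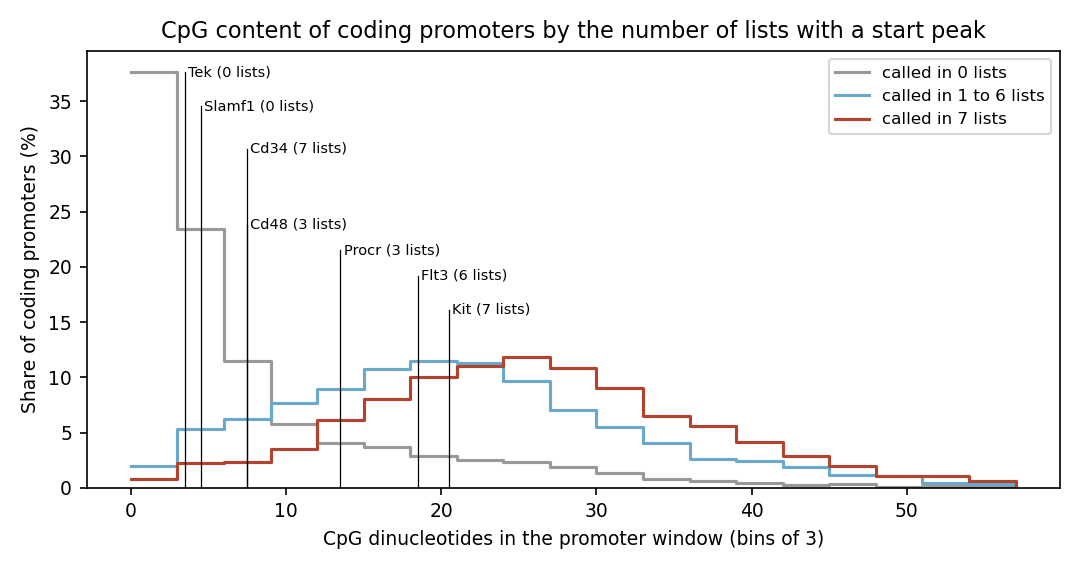
Share of protein-coding promoters (y axis, %) by the number of CpG dinucleotides in the window from 250 bases before to 50 after the transcript start (x axis, bins of 3), for genes called in 0 lists (grey), 1 to 6 lists (blue), and 7 lists (red), with 7 marker genes as black lines. Cd34, called in 7 lists, stands with 7 CpGs at the low end, where most promoters were called in none.

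Short motifs were searched on both strands of the same windows, each as its plain letters. CGGAAG, a core bound by ETS factors, was found in Cd48 and Procr and in 21.5% of all coding promoters. TGTGGT, a core bound by RUNX factors, was found in Cd48 (15.1% of promoters). AGATAA, a core bound by GATA factors, was found in Tek (9.96%), and GGGCGG, a core bound by SP1, in Kit (46.3%). TATAAA was found in none of the 7 windows and in 13.3% of promoters. None of the 5 motifs was present in more than 1 of Kit, Cd34, and Flt3.

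Other genes were taken from lists chosen by role, and not all of them encode surface proteins of LSK cells. Over all protein-coding genes, 20.2% were called in all 7 lists and 48.7% in none. Of 13 further stem cell surface genes, 3 were called in all 7 lists, namely Eng (endoglin), Cd81 (a tetraspanin), and Cd93, 8 were called in 1 to 6 lists, and Itga2b (CD41) and Thy1 in none. Among the 8 was Esam, an adhesion molecule, called in 6 lists. Of 11 further progenitor surface genes, Cd27 was called in all 7 lists, 4 in 1 to 6 lists, and 6 in none, among them Il7r and Csf1r, receptors of lymphoid and monocytic progenitors. According to the study's methods, cells carrying CD127, the product of Il7r, were depleted together with the lineage-positive cells, so that no call there was a result of its own. Among these further genes, no call was found at 2 of 13 stem cell genes and at 6 of 11 progenitor genes. This progenitor list is not of the same class as Cd34, Flt3, and Cd48. It also holds genes of committed progenitors, among them the Fcγ receptor genes Fcgr3 and Fcgr2b, called in no list. The study gates granulocyte-macrophage progenitors as Sca1-negative and FcγR-positive, outside LSK. The counts therefore cannot be set against the contrast among the 8 genes. Of 8 genes for ligands and partners of the 8 marker proteins, none was called in all 7, 5 were called in 1 to 6, and 3 in none. Kitl (stem cell factor) was called in 6 lists and Flt3l (FLT3 ligand) in 5. None of the genes in these lists or of the lineage markers differed in calls between the diets at an exact Fisher p of 0.05 (two-sided). Itgb3, the integrin β3 gene, and Csf3r, the receptor of granulocyte colony-stimulating factor, came closest, with 3 of 3 HFD-LSK and 1 of 4 LFD-LSK lists each (Fisher's exact test, two-sided, p = 0.143). The share of all genes with that pattern was not counted.

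Genes with the most similar place in the lists were found by the root of the summed squared differences in percent rank over the lists that called the marker, among genes called in the same lists. For Kit the nearest was Atg5 with a distance of 13.96 percentage points over 7 lists, and for Cd34 the peak shared by Gmpr2 and Nedd8 with 13.4, each from 3845 candidate peaks. For Flt3 it was Lsm12 with 20.5 over 6 lists from 144 candidates. For Cd48 it was Casp1 with 2.45 and for Procr Nhsl1 with 6.70, each over 3 lists from 151 candidates. The lists share their depth and background across all genes, and the distances describe these libraries.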

How the data were processed

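H3K4me3 CUT&Tag peak lists of 3 HFD-LSK and 4 LFD-LSK libraries were analyzed, grouped by the labels, which in places also name CUT&RUN. The 7 IgG libraries were not analyzed here. The submitters' notes name Trim Galore, Bowtie2, Picard, MACS2, bedtools, HOMER, featureCounts, and GRCm38, without versions, whereas the methods of the study describe alignment to GRCm39 and SEACR. The lists are in MACS2 format, called per library, and their positions fall on GRCm38 gene starts. The authors deposited 4 values per peak, namely a fold enrichment (the ratio of summit height to nearby background), a −log10 p-value, a −log10 q-value, and a score of 10 times −log10 p. No −log10 p was under 5.01. Since fold moves with the background of a library, it was ranked within each list and not compared as a level.

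Gene starts came from RefSeq GRCm38.p6, with the strand from the promoter table or, by symbol, from GENCODE, for 45217 of 49943 genes (90.5%). Exon boundaries were not used here. Peaks of the 7 lists that overlapped or touched were merged into 14659 consensus peaks. Where a list had more than 1 peak at a start, the one with the highest fold was used. Diets were compared by Fisher's exact test for calls and by exact permutation of library means over the 35 assignments for ranks and widths, two-sided, with Benjamini-Hochberg adjustment over the 4395 consensus peaks called in all 7 lists. Named genes were the 8 members, the gene lists by role, and the 3 genes nearest to each member in percent rank, of which the text gives the first. Some genes of the lists are counted but not reported here by name. The Ly6 neighbors, the place of the Flt3 summit, and the ranks by fragments were added after values were seen. The members and lists were chosen with earlier results of these data known.

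Depth is not given in the lists. Fragments at each summit were recovered by inverting the MACS2 fold and Poisson p, and 100% of peaks were solved within a relative error of 0.0002. The recovered coverage is an inferred value and carries counting error. Solving fragments from fold and p was tested on simulated peaks, with the factor that scales a library to its control given. The search for that factor, the mean coverage, and summits as low as the calling limits were outside that test. A count model on fragments, as in the study's use of DESeq2, needs counts that the lists do not hold. Python 3.11.15, numpy 2.4.6, pandas 2.3.3, and scipy 1.17.1 were used. Alternatives were a −log10 q of at least 5, a 3 kb window, equal list length, a call covering 50% of the consensus peak, merging within 500 bp, other rank and width scales, the replicate number as a block, and each library left out.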

Additional observations from a re-analysis of the deposited data

Results flagged for a closer look

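Of 8 groups of 4 LFD-LSK values examined, 2 held a library whose gap to the others was large for the range of the group. Chance flags about 1 in 20 groups of freely varying values, a rate that does not hold here, because the local background cannot fall below the library average and 3 libraries sat at that floor in both groups. The local background under the Kit summit was 2.11 times the library average in LFD-LSK replicate 2, against 1.00 times in the other three. At Cd34 it was 1.06 times in LFD-LSK replicate 3, against 1.00 times in the others.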

How the results depend on the processing

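Kit and Cd34 were the 2 markers called in all 7 lists. With lists cut to their 6921 strongest peaks the count was 1, because the Kit peak of HFD-LSK replicate 3 fell out, and with calls covering 50% of the consensus peak it was 0. It was 2 to 3 with each library left out, the third gene being Flt3 without LFD-LSK replicate 3. No marker separated the diets by fold rank in the 7 alternatives that could have given a p below 0.05. The replicate block and the libraries left out in turn could not, since they allow no exact permutation p below 0.25 and 0.0667. The count of markers separating the diets by width, 1 (Kit), was 0 with ranks of the width. It was also 0 with the replicate block and with each library left out (0 to 0). There, fewer libraries allow no exact permutation p below 0.0667 or 0.1, and the block none below 0.25. With equal list length it was 0 because Kit, not called in HFD-LSK replicate 3, was not tested. The Kit width difference ran from 490 to 2835 bp, and that of Cd34 from −148 (without HFD-LSK replicate 2) to 933 bp. The Kit rank difference ran from −861 (without HFD-LSK replicate 3) to 4200 and was −249 with ranks by fragments, chosen after seeing the data. The Cd34 rank difference was −0.510 percentage points as percent of the list. The count of body regions called in 1 diet only, 0, was 1 with a −log10 q of at least 5 and 0 to 3 with a library left out, being 3 when HFD-LSK replicate 2 was left out and 2 when LFD-LSK replicate 2 was. The difference of long-term from progenitor markers, −1.51 percentage points, was 46.1 with equal list length, 0.992 with ranks by −log10 p, 22.0 with ranks by fragments, and −12.7 to 18.97 with a library left out. The cause of these changes was not tested.

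The study's methods state that the diets were compared only inside a cohort of animals. They also state that its peak comparison allowed for batch and paired samples, whereas the main tests here treated the libraries as unpaired. The labels give no shared litter, batch, or day for libraries of the same number. The correlations of their deviations were 0.186, 0.0167, and 0.0522, against a highest value of 0.0411 among pairs of different numbers, so the data did not show pairing in every pair. A shared cohort cannot be told from these files. With that number as a block over 3 pairs, the Kit width difference was 1764 bp (exact permutation p = 0.25, the smallest that 3 pairs allow), and the count of markers separating the diets by width was 0. A missing call lies below the calling limit of its list and is no measured absence.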
